A study of Mus musculus with 11 samples.

Results

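Iron handling genes were examined by RNA sequencing in mouse mammary tumors with and without *Pcbp1*. They were 10 genes named for iron storage (*Fth1*, *Ftl1*), ferritin turnover (*Ncoa4*), uptake (*Tfrc*, *Slc11a2*), export (*Slc40a1*), iron sensing (*Aco1*, *Ireb2*), haem breakdown (*Hmox1*) and iron delivery (*Bola2*). They were found by gene name in a table of 26283 genes, where 11 rows carried these names because *Fth1* named a pair of rows, the gene itself and a processed pseudogene. Poly(A) RNA was sequenced from whole mammary tumors of 18-week-old C57BL/6 mice, 6 PyMT *Pcbp1*–/– and 5 PyMT *Pcbp1*+/+. Both groups carried MMTV-PyMT, a transgene that drives mammary tumors through polyomavirus middle T antigen, and MMTV-Cre. The PyMT *Pcbp1*–/– mice had floxed *Pcbp1* alleles (fl/fl) and the PyMT *Pcbp1*+/+ mice had unfloxed alleles (wt/wt). MMTV-Cre was used to delete *Pcbp1* in mammary epithelium, and how far other cells of a *Pcbp1*–/– tumor keep the gene was not measured here. The labels say no more of the replicates than that they are separate tumor samples with 1 batch label. Whether each came from a different mouse is not said. The p-values rest on the spread between these samples and treat them as independent. Total counts were 10543189 to 14092192 per tumor, at which 3 counts correspond to 0.213 to 0.285 counts per 1000000 (CPM), and the lowest count of any of the 10 genes in any tumor was 57.

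PCBP1 is an RNA-binding protein that also acts as a cytosolic iron chaperone and hands iron to ferritin. Ferritin, built of heavy (*Fth1*) and light (*Ftl1*) chains, stores iron, NCOA4 takes ferritin to the lysosome for iron release, transferrin receptor (*Tfrc*) and DMT1 (*Slc11a2*) bring iron in, and ferroportin (*Slc40a1*) lets it out. The iron regulatory proteins, encoded by *Aco1* and *Ireb2*, bind hairpins in messenger RNAs when iron is scarce, which blocks translation of ferritin and ferroportin and protects the *Tfrc* message, so that much of iron control acts on translation and is not read by RNA levels.

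The targeted gene was measured first. *Pcbp1* (chromosome 6, 86524492 to 86526321, GRCm38) lay at 15.4, 20.9 and 33.6 CPM (lowest, median and highest) in the 6 PyMT *Pcbp1*–/– tumors and at 268, 271, 225, 219.5 and 259 CPM in the 5 PyMT *Pcbp1*+/+ tumors. Every tumor fell on the side of its label. The log2 fold change, given throughout as PyMT *Pcbp1*–/– over PyMT *Pcbp1*+/+, was -3.43 (SE 0.19, adjusted p = 4.72e-06, edgeR), which is 0.0926 of the PyMT *Pcbp1*+/+ level. In bulk tissue, *Pcbp1* RNA from cells without recombination and residual RNA of recombined cells cannot be told apart, and for every gene here fewer expressing cells and less RNA per cell cannot be told apart.

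The tissue label was checked with 10 luminal epithelial markers. All 10 were detected, with a summed level of 1543, 2521 and 3161 CPM (lowest, median and highest) in PyMT *Pcbp1*–/– and of 2596, 2254, 2147, 2567 and 2680.0 CPM in PyMT *Pcbp1*+/+ tumors. The epithelial transcription factor *Ehf* had the largest CPM of the list. By edgeR 0 of the 10 had an adjusted p under 0.05, against 1.66% lower and 0.608% higher of all genes tested. At an unadjusted p under 0.05 there were 0, against 18.7%. DESeq2 called 0, against 2.66% lower and 1.81% higher of all genes of the table. Limma-voom called 0, against 6.19% and 5.03% of all genes tested. The median log2 fold change of the 10 was -0.03.

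At an adjusted p under 0.05, edgeR called 0 of the 10 iron handling genes lower and 0 higher in the absence of *Pcbp1*, and DESeq2 and limma-voom also called 0 each way. Among the 19232 genes tested, edgeR called 319 lower, or 1.66%, and 117 higher, or 0.608%. DESeq2, run on all 26283 genes of the table, called 700 lower, or 2.66%, and 476 higher, or 1.81%. Limma-voom called 1190 lower, or 6.19%, and 968 higher, or 5.03%. At an unadjusted p under 0.05 there were 2 of the 10 genes by edgeR (*Tfrc* and *Slc40a1*), 2 by DESeq2 and 3 by limma-voom. Of all genes tested by edgeR there were 3601, or 18.7%. This share was counted only for the edgeR fit with all tumors and no block. The counts by DESeq2, by limma-voom and in the fits that follow have no such share here and cannot be read against 18.7%. The edgeR count of 2 became 0 without PyMT *Pcbp1*+/+ replicate 1 or 2. It was 1 or 2 without each other tumor and 1 with the replicate number as a block. The groups overlapped in CPM for each of the 10 genes, whereas 633 genes, or 3.29% of those tested, had groups that did not overlap. All 10 passed the filter on low counts. Their log2 fold changes ran from -0.46 (*Slc40a1*) to 0.60 (*Tfrc*), 3 negative and 7 positive, with a median of 0.02, where all genes tested had a median of -0.00012. A missed threshold does not show equal levels, and the 95% intervals below give the differences these tumors leave possible.

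**Figure D1:**
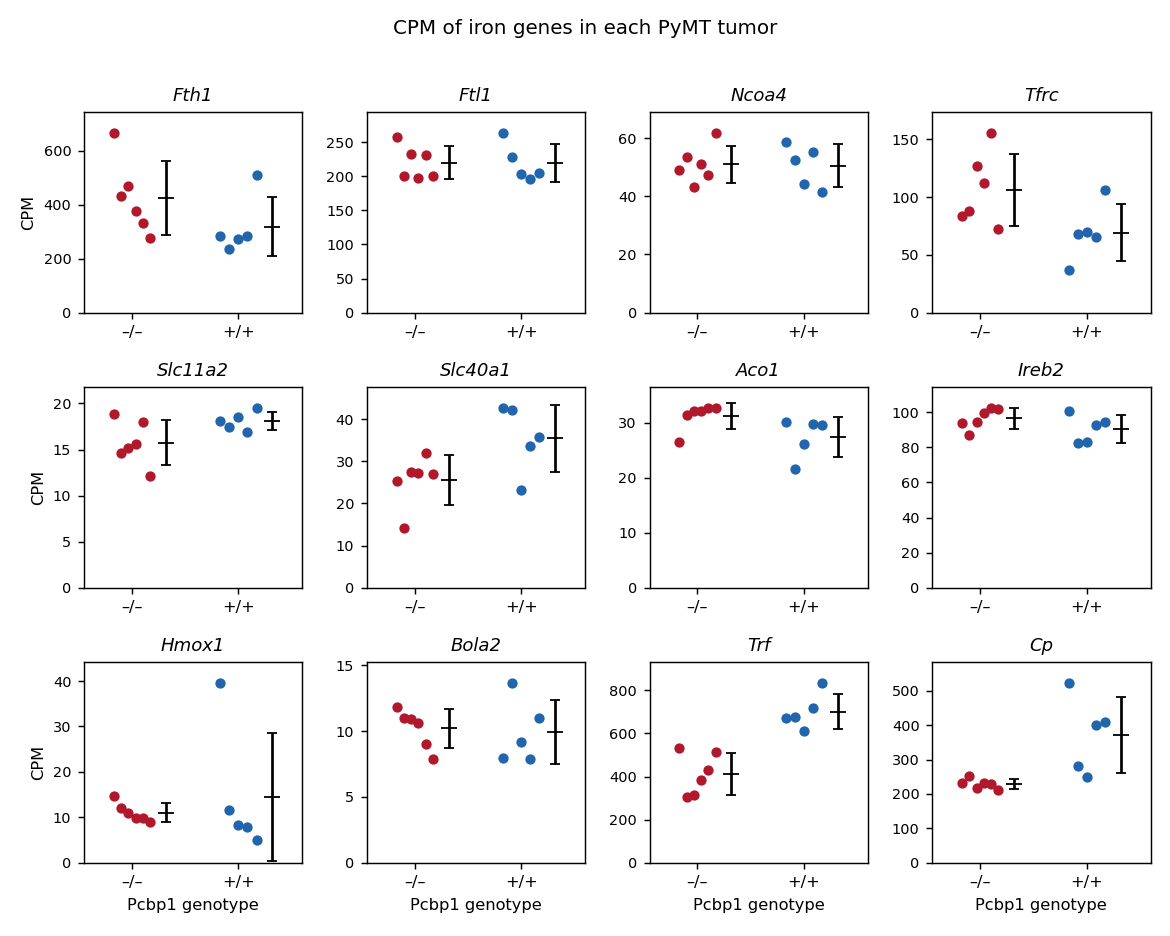
CPM of the 10 iron handling genes and of *Trf* and *Cp* in each tumor (points, in order of replicate number), for PyMT *Pcbp1*–/– (red, n = 6) and PyMT *Pcbp1*+/+ (blue, n = 5), with the mean and SD in black on linear axes from 0. The groups overlap in each panel except that of *Trf*, where the PyMT *Pcbp1*–/– tumors reach 534 CPM and the PyMT *Pcbp1*+/+ tumors start at 611 CPM.

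Storage came first by level. Divided by the length of the reference transcript, *Fth1* stood at 458 ± 146 CPM per kb (SD, n = 6) in PyMT *Pcbp1*–/– and 342 ± 117 (SD, n = 5) in PyMT *Pcbp1*+/+ tumors, and *Ftl1* at 227 ± 25.3 and 226 ± 28.1 CPM per kb. The next in order were *Tfrc* (mean over 11 tumors 18.3 CPM per kb), *Ireb2* (16.0), *Ncoa4* (11.3), *Slc40a1* (8.68), *Hmox1* (8.00), *Aco1* (6.44), *Slc11a2* (5.55) and *Bola2* (3.33). In PyMT *Pcbp1*+/+ tumors alone *Tfrc* (14.1) had a lower mean than *Ireb2* (15.4). Neighbours in the order over 11 tumors overlapped except at 2 steps, from *Ftl1* down to *Tfrc* and from *Ireb2* down to *Ncoa4*. The place of *Bola2* depends on the transcript taken, whose length here was 3031 bases.

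*Fth1*, the heavy chain that oxidises iron as it enters ferritin, lies on chromosome 19 at 9982703 to 9985092 (ENSMUSG00000024661.6). It measured 277, 405 and 665 CPM (lowest, median and highest) in PyMT *Pcbp1*–/– tumors and 284, 237, 273, 285 and 510.1 CPM in PyMT *Pcbp1*+/+ tumors 1 to 5. In 4 PyMT *Pcbp1*+/+ tumors it was below 5 of the 6 PyMT *Pcbp1*–/– tumors, but the fifth stood above all PyMT *Pcbp1*–/– tumors except 1. This gave a log2 fold change of 0.40 (SE 0.25, 95% interval -0.14 to 0.94, adjusted p = 0.41, edgeR). Without PyMT *Pcbp1*+/+ replicate 5 it was 0.67 (adjusted p = 0.107) and without PyMT *Pcbp1*–/– replicate 1 it was 0.24 (adjusted p = 0.606), within a range of 0.107 to 0.606 over all settings tried.

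The light chain *Ftl1* (chromosome 7, 45457944 to 45459884), which aids the forming of the iron core, measured 197, 216 and 258 CPM in PyMT *Pcbp1*–/– tumors and 263, 229, 203, 196.5 and 205 CPM in PyMT *Pcbp1*+/+ tumors. The groups covered nearly the same span. The log2 fold change was 0.01 (SE 0.10, 95% interval -0.20 to 0.22, adjusted p = 0.981, edgeR), and it changed sign with upper-quartile scaling. The ratio of *Fth1* to *Ftl1*, both per kb, ran from 1.44 to 2.69 in PyMT *Pcbp1*–/– tumors and was 1.13, 1.08, 1.40, 1.51 and 2.59 in PyMT *Pcbp1*+/+ tumors. The groups overlapped in this ratio too, and PyMT *Pcbp1*+/+ replicate 5 again lay far above its group. *Ftl1* overlaps *RP23-218K15.7* on the opposite strand, at a mean of 10.9 CPM.

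Processed copies of the ferritin genes can share reads with them, so that the split between a gene and its copies is uncertain. The second row named *Fth1*, a processed pseudogene on chromosome 8 at 86915157 to 86915514 (ENSMUSG00000109706.1), held 3.87% to 5.84% of the *Fth1* CPM in each of the 11 tumors. It measured 13.2, 21.1 and 36.6 CPM in PyMT *Pcbp1*–/– tumors and 14.1, 13.8, 11.7, 14.9 and 19.7 CPM in PyMT *Pcbp1*+/+ tumors. Its groups overlapped, and its log2 fold change was 0.61 (SE 0.22, 95% interval 0.13 to 1.10, unadjusted p = 0.0175, adjusted p = 0.168, edgeR). *Ftl2-ps*, a light-chain pseudogene on chromosome 4, held 11.2% to 13.9% of the *Ftl1* CPM and was at 0.12 on the log2 fold change scale (adjusted p = 0.621, edgeR). *Fth-ps2* lies within *Braf* on the same strand, stayed at 0.781 to 2.19 CPM, and its log2 fold change stood at -0.44 (adjusted p = 0.348, edgeR). With the copies added to their genes, *Fth1* had a log2 fold change of 0.41 and *Ftl1* of 0.02.

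*Ncoa4* (chromosome 14), the receptor that carries ferritin to the lysosome, ranged from 43.3 to 61.7 CPM in PyMT *Pcbp1*–/– and from 41.5 to 58.8 CPM in PyMT *Pcbp1*+/+ tumors. Its fitted level differed by 0.02 on a log2 scale (95% interval -0.19 to 0.24, adjusted p = 0.928, edgeR).

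*Tfrc* (chromosome 16, 32608920 to 32632794) encodes the transferrin receptor, through which dividing cells take up most of their iron. It measured 72.1, 99.8 and 155 CPM (lowest, median and highest) in PyMT *Pcbp1*–/– tumors and 37.1, 68.3, 69.7, 65.1 and 106 CPM in PyMT *Pcbp1*+/+ tumors. In 4 of 5 PyMT *Pcbp1*+/+ tumors it was below all 6 PyMT *Pcbp1*–/– tumors, while PyMT *Pcbp1*+/+ replicate 5 stood above 3 of them. The log2 fold change of 0.60 was the largest of the 10 genes (SE 0.27, 95% interval 0.01 to 1.19, unadjusted p = 0.047) and did not pass the adjustment (adjusted p = 0.261, edgeR). Leaving out 1 tumor moved it between 0.43, without PyMT *Pcbp1*+/+ replicate 1, and 0.83, without PyMT *Pcbp1*+/+ replicate 5.

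Markers of dividing cells lay in the same direction as *Tfrc*. All 12 of 12 had a positive log2 fold change, with a median of 0.45. By edgeR 7 had an unadjusted p under 0.05, against 18.7% of all genes tested. After adjustment 0 passed by edgeR, against 1.66% lower and 0.608% higher of all genes tested. DESeq2 called 5 of them higher, against 1.81% of all genes, and limma-voom 8, against 5.03%, with 0 lower by either. Their summed level was 531, 773 and 817 CPM in PyMT *Pcbp1*–/– tumors and 393, 633, 497, 613 and 539 CPM in PyMT *Pcbp1*+/+ tumors, with *Mki67* the largest. The part of dividing cells in the *Tfrc* values was not tested.

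*Slc11a2* (chromosome 15), which moves iron out of endosomes into the cytosol, ran from 12.1 to 18.9 CPM in PyMT *Pcbp1*–/– and from 16.9 to 19.5 CPM in PyMT *Pcbp1*+/+ tumors. The PyMT *Pcbp1*–/– tumors were the more widely spread (15.4% against 5.57%, SD over mean). Their log2 fold change was -0.21 (95% interval -0.48 to 0.06, adjusted p = 0.389, edgeR). A gene on the opposite strand that overlaps it had a mean of 1.08 CPM, and whether counting used strand is not given in the sources used here.

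*Slc40a1* (chromosome 1, 45908068 to 45926523) encodes ferroportin, the iron exporter. It measured 14.2, 27.2 and 31.9 CPM in PyMT *Pcbp1*–/– tumors and 42.6, 42.2, 23.2, 33.5 and 35.8 CPM in PyMT *Pcbp1*+/+ tumors. In 4 of 5 PyMT *Pcbp1*+/+ tumors it was above all PyMT *Pcbp1*–/– tumors, and PyMT *Pcbp1*+/+ replicate 3 was above 1 of them. Its log2 fold change of -0.46 was the lowest of the 10 genes (SE 0.19, 95% interval -0.88 to -0.04, unadjusted p = 0.0338) and did not pass the adjustment (adjusted p = 0.226, edgeR). It ran from -0.56 to -0.33 when 1 tumor was left out, the smallest difference being that without PyMT *Pcbp1*–/– replicate 2, the tumor with 14.2 CPM, and it was -0.27 with limma-voom.

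Macrophages recycle iron from red cells and express ferroportin and haem oxygenase, so their markers are given here. Of 12 macrophage markers, 10 had a positive and 2 a negative log2 fold change, with a median of 0.21, and 3 had an unadjusted p under 0.05, against 18.7% of all genes tested. By edgeR 0 were called higher, against 0.608% of all genes, and 1 lower, against 1.66%, *Cd14*, at -1.19 (adjusted p = 0.0481), a gene named because it was the only edgeR call of the list. DESeq2 called *Cd14* lower and *Lyz2* higher, where the shares over all genes were 2.66% and 1.81%, and limma-voom called *Lyz2* alone, higher, where they were 6.19% and 5.03%. *Lyz2*, the marker with the largest CPM, stood at 1.02 in log2 fold change (adjusted p = 0.0657, edgeR). The summed level of the list was 428, 542 and 682 CPM in PyMT *Pcbp1*–/– tumors and 687, 511, 548, 439 and 326 CPM in PyMT *Pcbp1*+/+ tumors, so that the groups overlapped. The part of macrophages in the *Slc40a1* and *Hmox1* values was not tested.

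*Aco1* (chromosome 4), an aconitase that becomes an iron regulatory protein when it lacks its iron-sulfur cluster, measured 26.5, 32.2 and 32.6 CPM in PyMT *Pcbp1*–/– tumors and 30.2, 21.6, 26.2, 29.8 and 29.6 CPM in PyMT *Pcbp1*+/+ tumors. In 5 of 6 PyMT *Pcbp1*–/– tumors it was above all PyMT *Pcbp1*+/+ tumors, and replicate 1 was the exception. Over all tumors the log2 fold change was 0.19 (SE 0.11, 95% interval -0.04 to 0.41, adjusted p = 0.368, edgeR), and with 1 tumor left out it ran from 0.11, without PyMT *Pcbp1*+/+ replicate 2, to 0.24. *Ireb2* (chromosome 9), the regulator that is degraded when iron is plentiful, ran from 87.3 to 102 CPM and from 82.3 to 101 CPM in the 2 groups, with a log2 fold change of 0.09 (95% interval -0.08 to 0.27, adjusted p = 0.575, edgeR). The spread within a group, as SD over mean, was 5.99% and 8.77% for *Ireb2*, against 31.96% and 34.3% for *Fth1*.

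*Hmox1* (chromosome 8, 75093621 to 75100589), the inducible haem oxygenase that frees iron from haem, measured 8.89, 10.5 and 14.8 CPM in PyMT *Pcbp1*–/– tumors and 39.5, 11.7, 8.24, 7.93 and 5.09 CPM in PyMT *Pcbp1*+/+ tumors 1 to 5. PyMT *Pcbp1*+/+ replicate 1 stood above every other tumor, and 3 of the remaining 4 lay below all PyMT *Pcbp1*–/– tumors. Over all 11 tumors the log2 fold change was -0.35 (SE 0.41, 95% interval -1.24 to 0.54, adjusted p = 0.689, edgeR). Without PyMT *Pcbp1*+/+ replicate 1 it turned to 0.41 (adjusted p = 0.346), the lowest adjusted p in a range of 0.346 to 0.999 over all settings. With all 11 tumors it was -0.0018 with limma-voom and -0.018 with limma on log2(CPM + 1), so size and direction depend on that tumor and on the tool.

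Erythroid markers read the blood in a tumor sample. Of 10 listed, 6 were in the table and 5 were tested, and these had positive log2 fold changes with a median of 0.67, 2 with an unadjusted p under 0.05, against 18.7% of all genes tested. By edgeR and DESeq2 0 were called and by limma-voom 1 was higher (*Hbb-bs*), against 5.03% of all genes, and the haemoglobin genes are near copies that can share reads. The summed level of the 6 erythroid markers in the table was low. It was 18.05, 22.9 and 32.8 CPM in PyMT *Pcbp1*–/– tumors and 27.9, 12.98, 13.5, 9.38 and 13.3 CPM in PyMT *Pcbp1*+/+ tumors, with *Hbb-bs* the largest at a mean of 7.62 CPM. PyMT *Pcbp1*+/+ replicate 1 was again the highest of its group, and the part of blood in the values above was not tested. Of 7 adipocyte markers tested all had negative log2 fold changes (median -0.80), of 8 endothelial markers all had negative ones (median -0.22), and of 4 T cell markers 3 did (median -0.10). Of these 3 lists 0 markers were called by edgeR, DESeq2 or limma-voom, and 0 had an unadjusted p under 0.05, against 18.7% of all genes tested. Over all genes, edgeR called 1.66% lower and 0.608% higher, DESeq2 2.66% and 1.81%, and limma-voom 6.19% and 5.03%. Sums cover all markers in the table, tested or not, which are 8 for each of these lists. The summed adipocyte level was 16.0, 21.4 and 61.0 CPM in PyMT *Pcbp1*–/– and 22.1, 15.6, 122, 35.7 and 31.6 CPM in PyMT *Pcbp1*+/+ tumors (*Lipe* the largest). The endothelial sum was 51.2, 59.5 and 98.9 CPM against 74.6, 94.4, 82.4, 95.5 and 56.4 CPM (*Cdh5*), and the T cell sum 3.82, 6.79 and 9.70 CPM against 10.3, 6.64, 7.80, 10.4 and 3.75 CPM (*Cd8a*). No marker of these lists was at 0 in every tumor.

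*Bola2* (chromosome 7, 126695401 to 126699798), whose protein works with glutaredoxin in cytosolic iron-sulfur trafficking, ranged from 7.86 to 11.9 CPM in PyMT *Pcbp1*–/– and from 7.90 to 13.6 CPM in PyMT *Pcbp1*+/+ tumors. The groups covered much the same span, with a log2 fold change of 0.03 (95% interval -0.34 to 0.40, adjusted p = 0.949, edgeR). It overlaps *Slx1b* and *Coro1a* on the opposite strand, at means of 12.9 and 4.91 CPM, so its own level is uncertain.

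**Figure D2:**
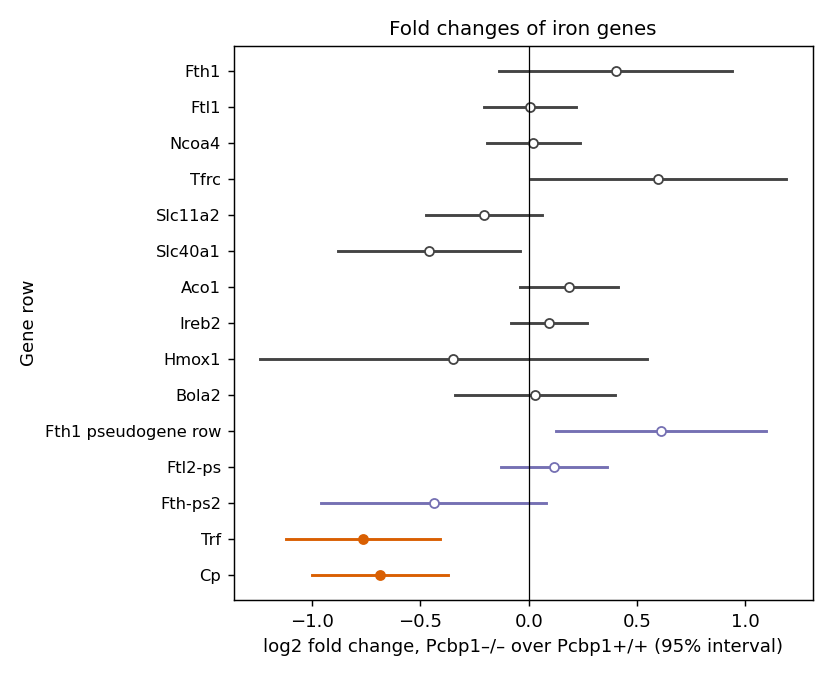
Log2 fold changes (x axis, PyMT *Pcbp1*–/– over PyMT *Pcbp1*+/+, 11 tumors) with 95% intervals for each gene row (y axis): the 10 iron handling genes in grey, ferritin copies in purple, *Trf* and *Cp* in orange. Filled points have an adjusted p under 0.05 (edgeR), which holds for *Trf* at -0.77 and *Cp* at -0.69 and for none of the 10 genes.

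A wider list of 94 other iron genes in 9 roles was examined for the rest of the pathway. Of these, 89 were in the table and 85 passed the filter on low counts. By edgeR 2 were lower at an adjusted p under 0.05, *Trf* and *Cp*, and 0 were higher, against 1.66% and 0.608% of all genes tested, while 18 had an unadjusted p under 0.05, against 18.7% of all genes. Negative log2 fold changes numbered 42 and positive 43, with a median of 0.00066. Groups did not overlap for 3 of the 85 (*Trf*, *Ndor1* and *Glrx5*), where the background over all genes was 3.29%. With DESeq2 4 were lower (*Trf*, *Cp*, *Ndor1* and *Alas1*) and 0 higher, against 2.66% and 1.81% of all genes of the table. With limma-voom 5 were lower (*Trf*, *Cp*, *Slc22a17*, *Alas1* and *Ppox*) and 3 higher (*Bola1*, *Tmem14c* and *Hmox2*), against 6.19% and 5.03% of all genes tested, the genes beyond *Trf* and *Cp* being named after their values were seen.

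*Trf* (chromosome 9, 103204001 to 103230444) encodes transferrin, which carries iron in plasma and is also made by mammary epithelium. It measured 306, 407 and 534 CPM in PyMT *Pcbp1*–/– tumors and 669, 675, 611, 717 and 831 CPM in PyMT *Pcbp1*+/+ tumors. Every PyMT *Pcbp1*–/– tumor was below every PyMT *Pcbp1*+/+ tumor. The log2 fold change was -0.77 (SE 0.16, 95% interval -1.12 to -0.41, adjusted p = 0.0322, edgeR), or 0.588 of the PyMT *Pcbp1*+/+ level. The direction held without each tumor in turn (-0.84 to -0.67). The adjusted p exceeded 0.05 in 7 of these 11 fits, those without PyMT *Pcbp1*–/– replicates 3, 4 or 5 or PyMT *Pcbp1*+/+ replicates 1, 3, 4 or 5, where it reached at most 0.0782. With other tools, normalization or filters it lay between 0.00125 and 0.0395.

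*Cp* (chromosome 3, 19957054 to 20009145) encodes ceruloplasmin, a copper ferroxidase that works beside ferroportin. It measured 213, 229.9 and 253 CPM in PyMT *Pcbp1*–/– tumors and 521, 279.8, 249, 402 and 408 CPM in PyMT *Pcbp1*+/+ tumors. The PyMT *Pcbp1*–/– tumors lay close together (6.11%, SD over mean, against 29.5%), and 5 of 6 were below all PyMT *Pcbp1*+/+ tumors. The log2 fold change was -0.69 (SE 0.15, 95% interval -1.001 to -0.37, adjusted p = 0.0312, edgeR), or 0.621 of the PyMT *Pcbp1*+/+ level. The direction held without each tumor in turn (-0.78 to -0.57). The adjusted p exceeded 0.05 in 8 of these 11 fits, those without PyMT *Pcbp1*–/– replicates 1, 3, 4, 5 or 6 or PyMT *Pcbp1*+/+ replicates 1, 4 or 5, where it reached at most 0.0823. It was 0.0538 with library size only, 0.0718 with limma on log2(CPM + 1) and 0.0734 on log2(CPM + 0.1), and the lowest over the settings tried was 0.00145, with DESeq2. *Cp* overlaps *Hps3* on the opposite strand, at a mean of 33.3 CPM.

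Apart from *Trf* and *Cp*, the 9 roles had 0 calls by edgeR, and the calls of the other tools are those named above. In uptake and endosomal release, 10 genes were tested and 7 had negative log2 fold changes (median -0.15), and the row with the largest CPM, *Lcn2*, which binds iron-laden siderophores, was at -0.09 (adjusted p = 0.844, edgeR). In export and systemic control 3 of 7 were negative (median 0.07), *Cp* having the largest CPM. Among chaperones and mitochondrial import, 3 of 6 were negative (median -0.04), with the mitochondrial iron importer *Slc25a37* at -0.14 (adjusted p = 0.569, edgeR). *Pcbp2*, a paralog that also binds iron, was at 0.02 (95% interval -0.22 to 0.27) and is named after its value was seen. Of the 8 genes of sensor turnover and iron regulatory protein targets, 5 were negative (median -0.08), with *Skp1a* at 0.11 (adjusted p = 0.563, edgeR).

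Of 18 genes of mitochondrial iron-sulfur assembly, 10 had negative and 8 positive log2 fold changes (median -0.09), 5 with an unadjusted p under 0.05, where the share over all genes was 18.7%. Their most abundant row, the chaperone *Hspa9*, was at 0.24 (adjusted p = 0.379, edgeR). In cytosolic iron-sulfur assembly 3 of 9 were negative (median 0.14), and the reductase *Ndor1* was at -0.37 (adjusted p = 0.088, edgeR), with groups that did not overlap. In haem synthesis 5 of 11 were negative (median 0.10), with *Ppox*, which makes protoporphyrin, at -0.37 (adjusted p = 0.105, edgeR). In haem transport and breakdown 5 of 11 were negative (median 0.12), with *Lrp1*, the receptor for haem bound to hemopexin, at -0.16 (adjusted p = 0.691, edgeR). Of 5 iron-dependent hydroxylases 1 was negative (median 0.05), the oxygen sensor *Egln3* at -0.02 (adjusted p = 0.971, edgeR). The edgeR count at an unadjusted p under 0.05 was 4 of 11 in haem transport and breakdown. It was 3 of 11 in haem synthesis and 2 of 9 in cytosolic iron-sulfur assembly. Uptake and endosomal release had 2 of 10, and export and systemic control 2 of 7. The remaining roles had 0, where the share over all genes was 18.7%.

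Ferritin, ferroportin and *Tfrc* messages are known for the hairpin that iron regulatory proteins bind, and its letters are shown as a feature these genes share beyond their names. A match describes the letters only. Untranslated regions (UTRs) of the mouse transcripts of GENCODE were searched on the transcript strand for CAGTGN preceded and followed by 5 paired bases (A with T, G with C or G with T), an unpaired C below these, and at least 3 of 6 pairs below the C. Such a stretch was present in the 5′ UTR of 0.0649% and in the 3′ UTR of 0.219% of all transcripts with that UTR, and at least 1 transcript had it in 21 of 20937 genes (0.1%) and 58 of 21540 genes (0.269%). It was found in the 5′ UTR of 17 of 18 *Fth1*, 6 of 7 *Ftl1* and 5 of 9 *Slc40a1* transcripts, and at 4 places in the 3′ UTR of 10 of 11 *Tfrc* transcripts. The capitals mark the loop, and each line reads 5′ to 3′. Positions are not given because these transcripts belong to a later genome build than the tables.
Fth1 5′ UTR: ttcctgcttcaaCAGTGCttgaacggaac
Ftl1 5′ UTR: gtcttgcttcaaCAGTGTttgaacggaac
Slc40a1 5′ UTR: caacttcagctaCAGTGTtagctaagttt
Tfrc 3′ UTR site 1: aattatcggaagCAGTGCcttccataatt
Tfrc 3′ UTR site 2: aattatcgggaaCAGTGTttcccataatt
Tfrc 3′ UTR site 3: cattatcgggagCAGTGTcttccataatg
Tfrc 3′ UTR site 4: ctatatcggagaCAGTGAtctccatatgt

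The stretches of *Fth1* and *Ftl1* share the 5 paired bases on each side of the loop. They differ in the last base of the loop, C in *Fth1* and T in *Ftl1*, and in bases below the unpaired C on the 5′ side. These letters were not found in the UTRs of *Ncoa4*, *Slc11a2*, *Aco1*, *Ireb2*, *Hmox1* or *Bola2*, which says only that this spelling is not there. The log2 fold changes of the members with the stretch were 0.40 (*Fth1*), 0.01 (*Ftl1*), -0.46 (*Slc40a1*) and 0.60 (*Tfrc*), and none passed the adjustment by edgeR. In the wider iron list the stretch was found in the 5′ UTR of 19 of 20 transcripts of *Alas2*, the erythroid enzyme of haem synthesis, whose log2 fold change was 0.15 (adjusted p = 0.741, edgeR). The counts measure RNA, and binding or translation was not measured.

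The genes most alike to each member were sought among 10471 genes with a mean of at least 10 CPM. The measure was Pearson's r between deviations of log2(CPM + 1) from the group means over the 11 tumors. Depth and tissue make-up differed between tumors and are shared by all genes of a tumor. With so many genes and 11 tumors the best match is high for any gene, and r is given as a description. For *Fth1* they were *RP23-203J4.1*, a processed pseudogene (r = 0.94), and *Sfxn5* (0.938). For *Ftl1* they were *Zc3h12a* (0.935) and its own pseudogene *Ftl2-ps* (0.919). *Tfrc* was most like *Ccnf* (0.974) and *Mrpl38* (0.953), and *Slc40a1* was most like *Rbbp4* (0.964) and the processed pseudogene *WI1-1003N17.1* (0.961). *Ncoa4* was most like *Ttc37* (0.941) and *Ppp3cb* (0.927), and *Slc11a2* like *Csrp2bp* (0.94) and *Ywhag* (0.909). *Aco1* was most like *Spop* (0.977) and *Prss8* (0.964). *Ireb2* was most like *Lpp* (0.93) and *Fech* (0.918), the enzyme that inserts iron into protoporphyrin to make haem. *Hmox1* was most like *Il4ra* (0.979) and *Tmem86a* (0.963), and *Bola2* like *Ntrk2* (0.913) and *Sf3a2* (0.908).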

How the data were processed

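Reads were checked with FastQC, aligned to GRCm38 with Bowtie2 and quantified in Partek Flow by the authors, whose submitters' notes give no versions; the counting method, strand use and annotation are not given in the sources used here. The deposited estimated counts (18.1% to 19.8% of values per tumor not whole) were rounded to whole numbers for testing. The deposited CPM are these counts per 1000000 of each tumor's total, and 51.7% to 61.4% of counts fell on protein-coding genes. Genes were tested with edgeR 4.0.16 in R 4.3.3 (quasi-likelihood test, TMM factors, default filterByExpr, Benjamini-Hochberg adjustment over all genes tested, call at an adjusted p under 0.05), and the method was tested on simulated data. Alternatives were DESeq2 1.42.0, limma 3.58.1 (voom with sample quality weights, and log2(CPM + 1) or log2(CPM + 0.1)), library size only, upper-quartile factors, protein-coding genes, no filter, at least 1 CPM in 5 tumors, the replicate block, each tumor left out, and, chosen after seeing the data, ferritin rows summed with their processed copies. Genes named were the 10 members, *Pcbp1*, ferritin copies, called other iron genes and the row with the largest mean CPM of each role and marker list, and the 2 genes most like each member. Also named were other iron genes whose groups did not overlap, *Pcbp2*, *Cd14*, *Alas2* for its UTR stretch, and some genes that overlap a named gene. Marker lists were luminal epithelial, macrophage, erythroid, adipocyte, endothelial, T cell and dividing cell. Lengths were those of GENCODE canonical transcripts matched by gene identifier. Members and lists were chosen with earlier results of these data known. Floors on counts cover counting error only, and 95% intervals of fold changes rest on the spread between tumors.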

Additional observations from a re-analysis of the deposited data

Results flagged for a closer look

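In each group of 5 or 6 tumors, a tumor was singled out when its gap to the nearest other tumor was more than 0.71 (5 tumors) or 0.625 (6 tumors) of the range of its group, the 95% limits of Dixon's test. Of 64 groups of values examined, 10 gave such a tumor, where chance gives about 1 in 20 for independent, normally distributed values. These groups come from the same 11 tumors and some quantities share a gene, so the number is not read as an excess over chance. PyMT *Pcbp1*+/+ replicate 5 stood high in *Fth1* (510.1 CPM, the next at 285) and in the ratio of *Fth1* to *Ftl1* per kb (2.59, the next at 1.51). PyMT *Pcbp1*+/+ replicate 1 stood high in *Hmox1* (39.5 CPM, the next at 11.7) and in the summed erythroid markers (27.9 CPM, the next at 13.5). PyMT *Pcbp1*+/+ replicate 2 was high in *Ndor1* (54.5 CPM, the next at 40.6), and PyMT *Pcbp1*+/+ replicate 3 in the summed adipocyte markers (122 CPM, the next at 35.7). Among PyMT *Pcbp1*–/– tumors, replicate 1 stood low in *Aco1* (26.5 CPM, the next at 31.4) and in the summed dividing cell markers (531 CPM, the next at 744). Replicate 2 stood low in *Slc40a1* (14.2 CPM, the next at 25.4), and replicate 6 in *Ndor1* (28.5 CPM, the next at 31.97).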

How the results depend on the processing

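With 5 and 6 tumors, small differences in single genes could not be called, as the 95% intervals show, and RNA levels do not read protein or iron. The counts of 0 lower and 0 higher iron handling genes held in all 22 alternatives, and their median log2 fold change stayed between -0.0019 and 0.08. *Pcbp1* was lower throughout (-3.60 to -3.34). Over all genes, 319 lower and 117 higher calls became 700 and 476 with DESeq2, 1190 and 968 with limma-voom, and 144 to 389 and 41 to 187 with 1 tumor left out. Other iron genes called lower, 2 in all, became 4 with DESeq2, 5 with limma-voom, 1 with library size only, 1 with limma on log2(CPM + 1), 1 on log2(CPM + 0.1), and 0 to 3 with 1 tumor left out. Those called higher, 0 in all, became 3 with limma-voom and 0 to 1 with 1 tumor left out. The cause was not tested.

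Signs turned for 6 genes, none of them called: *Ftl1* was -0.00081 with upper-quartile factors and -0.044 to 0.051 with 1 tumor left out, *Ncoa4* -0.022 with limma-voom and -0.049 to 0.069 with 1 left out, *Hmox1* -0.0018 with limma-voom, -0.018 on log2(CPM + 1), 0.0012 on log2(CPM + 0.1) and -0.55 to 0.41 with 1 left out. *Bola2* was 0.20 with limma-voom and -0.060 to 0.16 with 1 left out. With 1 left out, *Egln3* ran from -0.24 to 0.12 and *Lcn2* from -0.19 to 0.010. Over the same fits *Hspa9* (0.12 to 0.29), *Lrp1* (-0.26 to -0.062, and -0.36 with limma-voom) and *Slc25a37* (-0.21 to -0.053) kept their sign, as did *Ireb2* (0.059 to 0.13), *Skp1a* (0.064 to 0.18, and 0.22 with limma-voom) and the copies *Ftl2-ps* (0.053 to 0.20) and *Fth-ps2* (-0.55 to -0.33, and -0.27 on log2(CPM + 1)). *Ndor1* was called with DESeq2 (-0.36) and *Ppox* with limma-voom (-0.41).

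Replicate numbers 1 to 5 occur in both groups, and the labels do not say whether they pair the samples. Deviations of same-numbered tumors correlated at 0.134, 0.0867, -0.079, -0.144 and 0.293. Tumors of different number were not compared, so these values do not settle whether the numbers pair the samples. With the number as a replicate block, calls over all genes were 118 lower and 42 higher, other iron genes called lower were 1, *Ncoa4* was -0.048, *Hmox1* 0.031 and *Bola2* 0.11, and the adjusted p was 0.0498 for *Trf* and 0.106 for *Cp*.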
